A study of Mus musculus with 16 samples.

Results

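The 8 genes described here, 1700037H04Rik, Dok2, Lage3, S100a1, Gm2a, Spsb2, Pxmp2 and Dcxr, are 8 of 7302 genes tested in mouse liver. They were selected on their normalized intensities, because they read higher on arrays of Trim28MommeD9/+ livers than on arrays of Trim28+/+ livers in these same data, next to Mas1 and Fmr1nb, which are not described here. The difference between genotypes is therefore what chose them, and for the 8 genes it is given as a description with no test. All 9 probes annotated to the 8 genes passed the filter on dim probes, which kept a probe detected (detection p-value under 0.01) on 3 or more arrays. Only Dcxr was read by more than 1 probe.

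Total liver RNA came from 4-week-old male FVB/NJ mice. The labels assign 7 arrays to Trim28MommeD9/+, heterozygous for a splice-site mutation induced with N-ethyl-N-nitrosourea that is carried in every cell, and 9 arrays to Trim28+/+, the wild-type littermates. Both genotypes belong to a line in which a GFP transgene is expressed in red blood cells. The study describes 4 mice per genotype with technical replicates, and the labels do not say which arrays share a mouse, so the spread over arrays is in part technical and a p-value taken over arrays comes out too small.

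Trim28 (also called KAP1) is a co-repressor that KRAB zinc-finger proteins bring to DNA, where it gathers a histone methyltransferase and heterochromatin protein. It is best known for silencing transposable elements and for keeping DNA methylation at imprinted genes. The 8 genes have no common role: they include a signalling adaptor of blood cells, a substrate receptor of a ubiquitin ligase, a calcium-binding protein, a lysosomal lipid-binding protein, a peroxisomal membrane protein, a carbonyl reductase, a subunit of a tRNA-modifying complex and an open reading frame known by a clone name.

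The target of the mutation was read first. Trim28 itself had deposited intensities of 292 to 406 on Trim28MommeD9/+ arrays and 508 to 863 on Trim28+/+ arrays, which do not overlap. The arrays' mean intensities over all probes, 205 to 270 and 273 to 344, did not overlap either. In deposited intensities only 61 of 7302 genes (0.835%) had a higher mean in Trim28MommeD9/+ livers. After normalization Trim28 averaged 8.62 ± 0.07 log2 units in Trim28MommeD9/+ livers (SD, n = 7 arrays) and 9.06 ± 0.23 in Trim28+/+ livers (SD, n = 9 arrays). The difference was -0.44 (SE 0.09, limma adjusted p = 0.00277). The direction is that of the labels, although the normalized ranges overlap. Trim28+/+ replicate 7 read 8.63, below Trim28MommeD9/+ replicates 4 and 7 at 8.76 and 8.64. Set against Trim28+/+ replicate 1 alone, the difference was -0.77 with an adjusted p of 0.186.

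The brightness of the arrays also differed with genotype. The mean intensity over all probes before normalization was 205 to 270 on Trim28MommeD9/+ arrays and 273 to 344 on Trim28+/+ arrays. By the constant that the authors subtracted on each array, the 7 Trim28MommeD9/+ arrays fall into a low-background set of 8 together with Trim28+/+ replicate 1, and the other Trim28+/+ arrays form the high-background set. Genotype and background set can be told apart by Trim28+/+ replicate 1 alone, so its value is given beside each gene. That array does not separate genotype from brightness. Its mean intensity, 317, lay within the Trim28+/+ range and above every Trim28MommeD9/+ array. It also had the most detected probes, 10262, with 9630 on the next array, Trim28+/+ replicate 2. The labelled tissue was checked with hepatocyte transcripts: Apoa1 and Ttr, which encode secreted plasma proteins, lay at 14.44 and 14.33 log2 units in Trim28MommeD9/+ livers and at 14.50 and 14.39 in Trim28+/+ livers, whereas the probe for Alb was dim, at 5.39 in Trim28MommeD9/+ livers and 6.60 in Trim28+/+ livers.

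RefSeq promoter windows (GRCm38.p6, 300 bases ending 50 bases after the annotated start) were found for 6 of the 8 genes, in 7 windows, since Spsb2 has 2 overlapping ones. The windows of 3 genes are printed in the direction of transcription. The first is that of 1700037H04Rik, which had the largest difference. The others are that of Gm2a, with the most GGGCGG matches, and that of Lage3, the only one with the letters TATAAA. Capitals mark 4 short motifs wherever they occur on either strand, at any distance from the annotated start. These are TATAAA for the TATA box, the letters CCAAT that name their own box, GGGCGG for the GC box, and TGCCGC for the core of the element bound by Zfp57, a zinc-finger partner of Trim28. No marked match overlaps another.
1700037H04Rik, chr2:131160032-131160331, minus strand: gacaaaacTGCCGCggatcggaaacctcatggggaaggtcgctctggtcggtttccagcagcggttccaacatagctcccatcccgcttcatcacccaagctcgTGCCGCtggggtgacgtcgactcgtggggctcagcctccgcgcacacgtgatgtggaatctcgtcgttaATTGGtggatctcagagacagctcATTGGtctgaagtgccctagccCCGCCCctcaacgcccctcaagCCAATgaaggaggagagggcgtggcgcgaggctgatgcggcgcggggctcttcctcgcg
Gm2a, chr11:55097735-55098034, plus strand: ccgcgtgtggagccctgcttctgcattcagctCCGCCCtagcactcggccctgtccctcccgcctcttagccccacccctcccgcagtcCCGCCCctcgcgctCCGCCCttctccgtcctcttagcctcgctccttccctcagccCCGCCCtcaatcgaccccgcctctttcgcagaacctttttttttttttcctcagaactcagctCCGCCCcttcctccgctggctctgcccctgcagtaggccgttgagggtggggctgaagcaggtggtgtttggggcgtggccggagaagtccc
Lage3, chrX:74353569-74353868, minus strand: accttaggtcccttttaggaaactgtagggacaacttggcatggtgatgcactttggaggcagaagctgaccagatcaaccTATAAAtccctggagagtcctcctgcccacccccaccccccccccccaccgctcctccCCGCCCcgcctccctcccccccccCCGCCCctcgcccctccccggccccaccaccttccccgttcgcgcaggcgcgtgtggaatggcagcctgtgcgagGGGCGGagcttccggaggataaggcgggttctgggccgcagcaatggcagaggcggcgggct

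The letters TGCCGC occurred in 1 of the 7 windows, that of 1700037H04Rik, with 2 matches, and in 11.6% of all 32851 promoter windows. GGGCGG occurred in 5 of the 7 windows, against 35.7% of all windows, with 5 matches for Gm2a, 3 for Lage3, 2 in each Spsb2 window and 1 for 1700037H04Rik. CCAAT was found in the windows of 1700037H04Rik (3 matches) and Dcxr (2 matches), against 37.4% of all windows, and TATAAA only in that of Lage3, against 13.6%. The windows ranged from 27 CG dinucleotides for 1700037H04Rik, more than in 84.5% of all windows, through 21 for Gm2a, 20 for Spsb2, 18 for Lage3 and 11 for S100a1, to 7 for Dcxr, which is the median of all windows. The 8 genes therefore had no shared letters among the 4 searched. These matches are a description of sequence, and binding was not measured.

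The genes lie on 7 chromosomes. In GRCm38.p6 coordinates these are 1700037H04Rik at chr2:131146315-131160085, Dok2 at chr14:70765889-70778494, Lage3 at chrX:74352162-74353618, S100a1 at chr3:90511034-90514330, Gm2a at chr11:55097985-55113029, Spsb2 at chr6:124808604-124810619, Pxmp2 at chr5:110274286-110286222 and Dcxr at chr11:120724546-120727284. Gm2a and Dcxr share chromosome 11 but stand far apart on it.

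On the normalized scale, every Trim28MommeD9/+ array lay above every Trim28+/+ array for 8 of the 8 genes, a pattern found in 94 of 7302 genes (1.29%). The choice of the genes rests on this contrast, so nothing is read from the count. The differences ran from 0.26 log2 units for Dcxr to 0.91 for 1700037H04Rik, with a median of 0.40. Among all genes tested, 1700037H04Rik had the seventh largest difference and Dok2 the 59th, while Dcxr came 695th. The gap between the lowest Trim28MommeD9/+ array and the highest Trim28+/+ array ranged from 0.05 for Dcxr and 0.06 for S100a1 to 0.56 for 1700037H04Rik.

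**Figure D1:**
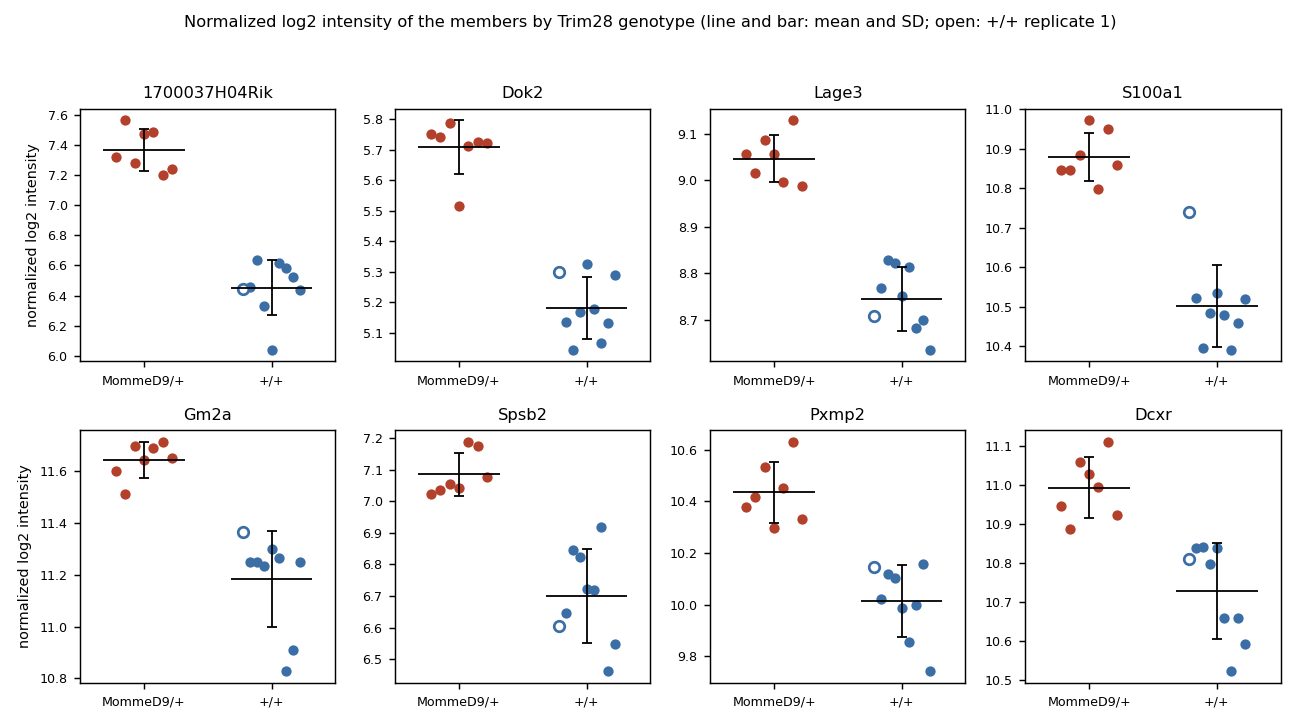
Normalized log2 intensity of the 8 genes on each array, with Trim28MommeD9/+ arrays (red, n = 7) left of Trim28+/+ arrays (blue, n = 9), a line for the mean and a bar for the SD. All red points lie above all blue points in each panel, and the open symbol, Trim28+/+ replicate 1, is the highest blue point for Gm2a and S100a1. The vertical axes differ between panels and do not start at 0.

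1700037H04Rik is a protein-coding open reading frame without an established role. On Trim28MommeD9/+ arrays its normalized log2 intensity was lowest at 7.20, with a median of 7.32 and a highest value of 7.56. On Trim28+/+ arrays the lowest was 6.04, the median 6.46 and the highest 6.64, with replicate 5 at the low end and replicate 1, at 6.44, in the middle. The groups stood 0.56 apart at their nearest arrays, and the difference of means was 0.91 (SE 0.08). Its means were 7.36 ± 0.14 in Trim28MommeD9/+ livers and 6.45 ± 0.18 in Trim28+/+ livers (SD, n = 7 and 9 arrays). Its deposited intensities before any correction were brighter as well, at 161 ± 18.6 on Trim28MommeD9/+ arrays and 134 ± 16.2 on Trim28+/+ arrays (SD), although the Trim28+/+ arrays were brighter over all probes. In those intensities 6 of the 7 Trim28MommeD9/+ arrays lay above every Trim28+/+ array, and Trim28MommeD9/+ replicate 7, the array with the lowest mean intensity of the 16, was the exception at 128.

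Dok2 encodes an adaptor that becomes phosphorylated below tyrosine kinase receptors and dampens Ras signalling, mostly in blood cells. Its normalized log2 intensity on Trim28MommeD9/+ arrays was 5.52 at the lowest, 5.72 at the median and 5.79 at the highest, and on Trim28+/+ arrays 5.04, 5.17 and 5.33. The other 6 Trim28MommeD9/+ arrays lay between 5.71 and 5.79, and replicate 4 stood below them, still above all Trim28+/+ arrays. The probe was dim. It was detected on 7 of 7 Trim28MommeD9/+ arrays and on 5 of 9 Trim28+/+ arrays, although its deposited intensity was 67.2 ± 5.49 on Trim28MommeD9/+ arrays and 74.9 ± 5.33 on Trim28+/+ arrays (SD). The deposited intensities of both genotypes overlapped, and the normalized difference of 0.53 (SE 0.06) was 0.41 against Trim28+/+ replicate 1, which read 5.30, 0.33 under median scaling and 0.31 without background correction.

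Of the partners of Dok2, 7 of 13 listed genes were tested, of which 1 was higher and 2 were lower in Trim28MommeD9/+ livers at an adjusted p under 0.05. Over all 7302 genes 10.4% were called higher and 11.4% lower, shares to set beside the counts of every list below. Ptpn6, a tyrosine phosphatase of blood cells, averaged 7.99 ± 0.11 in Trim28MommeD9/+ livers and 7.72 ± 0.17 in Trim28+/+ livers, a log2 fold change of 0.28 (SE 0.08, adjusted p = 0.0166). The SH2 and SH3 adaptors Nck1 and Crkl were lower, by log2 fold changes of -0.45 (adjusted p = 0.0411) and -0.27 (adjusted p = 0.0428). To allow for technical replicates, arrays of a genotype were also paired by their correlation, a presumption that the labels do not give, and with these pairs as a block none of the 3 was called (adjusted p = 0.0631 for Ptpn6, 0.0910 for Nck1 and 0.0982 for Crkl). Over all lists 28 of 47 called genes were no longer called with the pairs. Dok3, the close relative of Dok2, was at -0.05 (adjusted p = 0.639), and Dok1 did not pass the filter on dim probes.

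Several markers of liver macrophages were higher in Trim28MommeD9/+ livers, as Dok2 was, and others were not. Of 13 Kupffer cell markers 10 were tested, of which 7 were higher in Trim28MommeD9/+ livers and none was lower, with a median log2 fold change of 0.33 (0.0478 over all genes). The 3 not called were Marco at 0.13, Timd4 at -0.13 and Adgre1 at -0.30 (adjusted p = 0.0721), of which Adgre1 was called lower under median scaling (adjusted p = 0.00460). Against Trim28+/+ replicate 1 alone, Adgre1 stood at 0.16 and Timd4 at 0.22. Folr2, a folate receptor of tissue macrophages, was higher by 0.58 (SE 0.11, adjusted p = 0.00242), Vsig4, a complement receptor, by 0.44 (SE 0.08, adjusted p = 0.00213), and Fcna, a ficolin, by 0.51 (SE 0.10, adjusted p = 0.00242). Cd163, a scavenger receptor of macrophages that is outside the list and was chosen after its values were seen, was not detected on any Trim28MommeD9/+ array and on 6 of 9 Trim28+/+ arrays, and was at least 1.06-fold lower in Trim28MommeD9/+ livers (adjusted p = 0.00145). The summed level of the 10 markers on the linear normalized scale was 3226 to 3808 on Trim28MommeD9/+ arrays and 2216 to 3242 on Trim28+/+ arrays, and 2848 on Trim28+/+ replicate 1, so that the ranges only touch. Vsig4 and Fcna are among the genes the study listed from these arrays and are not independent evidence of the direction. With the presumptive pairs 4 markers were called higher, Folr2, Vsig4, Fcna and C1qc. Under median scaling 1 marker was higher and 1 lower, and none was called against Trim28+/+ replicate 1, a comparison in which limma called 2 of all genes higher (0.0274%) and 1 lower (0.0137%).

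Of 8 general leukocyte genes tested, 2 were higher, Hcls1 by 0.31 (adjusted p = 0.0103) and Tyrobp by 0.34 (adjusted p = 0.0164), and none was lower, and neither was called with the presumptive pairs. The 1 T and NK cell gene, the 1 B cell gene and the 2 neutrophil genes tested were not called. In whole liver, more cells of a type and more RNA per cell cannot be told apart. The part of these markers in the difference of Dok2 was not tested.

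Spsb2 encodes a SPRY and SOCS box protein that brings inducible nitric oxide synthase to a cullin 5 ubiquitin ligase. Its normalized log2 intensity on Trim28MommeD9/+ arrays was 7.02 at the lowest, 7.06 at the median and 7.19 at the highest, and on Trim28+/+ arrays 6.46, 6.72 and 6.92. The groups stood 0.10 apart, with Trim28+/+ replicate 7 nearest and replicate 8 lowest. Trim28+/+ replicate 1 read 6.61, below the mean of its group, so the distance of the Trim28MommeD9/+ mean from that array, 0.48, was larger than the difference between genotypes, 0.39 (SE 0.07). Deposited intensities overlapped, at 117 to 153 on Trim28MommeD9/+ arrays and 134 to 181 on Trim28+/+ arrays.

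Among 10 tested genes listed around the SPSB family and cullin ligases, 1 was higher and 3 were lower in Trim28MommeD9/+ livers. The shares over all genes were 10.4% and 11.4%. Cul5 itself was at 0.10 (adjusted p = 0.373), and the ligase subunits Elob and Eloc were not called either. Spsb4, a family member, was higher by 0.26 (SE 0.09, adjusted p = 0.0493) but at 0.00 under median scaling, and Spsb1 and Spsb3 were at 0.07 (adjusted p = 0.365) and 0.04 (adjusted p = 0.862). Asb8, another SOCS box protein, was lower by a log2 fold change of -0.22 (SE 0.05, adjusted p = 0.00386), the RING protein Rbx1 by -0.42 (SE 0.11, adjusted p = 0.0108) and Socs2, a feedback inhibitor of growth hormone signalling, by -1.21 (SE 0.35, adjusted p = 0.0193). With the presumptive pairs Asb8 and Socs2 were still called, and Rbx1 (adjusted p = 0.0831) and Spsb4 (adjusted p = 0.101) were not. Asb8 is in the study's list from these arrays.

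S100a1 encodes a calcium-binding EF-hand protein best known from heart muscle. Its normalized log2 intensity on Trim28MommeD9/+ arrays was 10.80 at the lowest, 10.86 at the median and 10.97 at the highest, and on Trim28+/+ arrays 10.39, 10.48 and 10.74. The groups stood 0.06 apart only because of Trim28+/+ replicate 1, the highest of its group at 10.74, while the next Trim28+/+ array read 10.54. The difference was 0.38 (SE 0.05) over all arrays and 0.14 against Trim28+/+ replicate 1 alone. No Trim28MommeD9/+ array exceeded every Trim28+/+ array in the deposited intensities, which averaged 1621 ± 215 and 1656 ± 210 in Trim28MommeD9/+ and Trim28+/+ livers (SD).

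Of the S100 proteins, 8 of 13 listed genes were tested, of which none was higher and 1 was lower (all genes: 10.4% and 11.4%). S100a10, the partner of annexin A2, averaged 7.38 ± 0.31 in Trim28MommeD9/+ livers and 8.26 ± 0.44 in Trim28+/+ livers, a log2 fold change of -0.87 (SE 0.18, adjusted p = 0.00285), and is in the study's list. S100a13 and S100a14, the nearest genes after S100a1 on chromosome 3, were at 0.07 (adjusted p = 0.442) and 0.02 (adjusted p = 0.913). Striated muscle genes, which include the sites where S100a1 is abundant, were listed as markers of another tissue, and none of the 7 entered the test.

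Gm2a encodes the GM2 activator, which lifts GM2 ganglioside out of the lysosomal membrane and presents it to hexosaminidase A. Its normalized log2 intensity on Trim28MommeD9/+ arrays was 11.51 at the lowest, 11.65 at the median and 11.71 at the highest, and on Trim28+/+ arrays 10.83, 11.25 and 11.37. Trim28+/+ replicates 7 and 8 lay at 10.83 and 10.91, below the rest of that group, and replicate 1 was its highest. The difference was 0.46 (SE 0.07) over all arrays and 0.28 against Trim28+/+ replicate 1. The deposited intensities averaged 2745 ± 359 on Trim28MommeD9/+ arrays and 2646 ± 329 on Trim28+/+ arrays (SD) and overlapped over most of their range.

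Of 12 tested lysosomal genes, 3 were higher and 3 were lower in Trim28MommeD9/+ livers, against 10.4% and 11.4% of all genes. The lysosomal genes were listed around glycolipid breakdown, and not all of them act in it. Hexa, the alpha subunit of the enzyme that Gm2a serves, averaged 8.14 ± 0.07 in Trim28MommeD9/+ livers and 7.82 ± 0.17 in Trim28+/+ livers, a log2 fold change of 0.32 (SE 0.07, adjusted p = 0.00575). Gusb, the beta-glucuronidase, was higher by 0.35 (SE 0.07, adjusted p = 0.00376), and the protective protein Ctsa by 0.44 (SE 0.12, adjusted p = 0.0132). Npc2, which binds cholesterol in the lysosome, was lower by a log2 fold change of -0.85 (SE 0.17, adjusted p = 0.00242) and is in the study's list. The glycosidase Naglu was lower by -0.36 (SE 0.11, adjusted p = 0.0257) and the membrane protein Scarb2 by -0.23 (SE 0.08, adjusted p = 0.0477). With the presumptive pairs Gusb, Ctsa and Npc2 were still called, and Hexa (adjusted p = 0.0902), Naglu (adjusted p = 0.169) and Scarb2 (adjusted p = 0.219) were not. Gm2a and several of these enzymes are also abundant in macrophages, whose markers are given above with Dok2, and the part of those cells in the difference of Gm2a was not tested.

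Pxmp2 encodes a channel-forming protein of the peroxisomal membrane. Its normalized log2 intensity on Trim28MommeD9/+ arrays was 10.30 at the lowest, 10.42 at the median and 10.63 at the highest, and on Trim28+/+ arrays 9.74, 10.02 and 10.16. The groups stood 0.14 apart, with Trim28+/+ replicate 8 and replicate 1 nearest to the Trim28MommeD9/+ arrays. The difference of 0.42 (SE 0.07) was 0.29 against Trim28+/+ replicate 1. Before correction the probe had 1204 ± 205 on Trim28MommeD9/+ arrays and 1204 ± 169 on Trim28+/+ arrays (SD), means that are the same once rounded.

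Genes of the peroxisome were called in both directions, as were 10.4% (higher) and 11.4% (lower) of all genes tested. Of 19 tested genes listed for its membrane and biogenesis or as relatives of Pxmp2, 4 were higher and 1 was lower in Trim28MommeD9/+ livers. Their median log2 fold change was below 0.01. Mpv17l2, 1 of the 4, was listed as a relative of Pxmp2. Abcd3, a fatty acid transporter of the peroxisomal membrane, was higher by 0.34 (SE 0.08, adjusted p = 0.00881), the biogenesis factor Pex16 by 0.28 (SE 0.07, adjusted p = 0.0103), and Pex14, part of the import pore, was lower by a log2 fold change of -0.32 (SE 0.08, adjusted p = 0.0106). Mpv17 and Pxmp4, which belong with Pxmp2 among small membrane proteins, were at -0.33 (adjusted p = 0.141) and -0.50 (adjusted p = 0.0982). Of 15 tested peroxisomal enzymes 2 were higher and 5 were lower. Catalase (Cat) was lower by a log2 fold change of -0.68 (SE 0.16, adjusted p = 0.00781), the beta-oxidation enzyme Ehhadh by -0.81 (SE 0.20, adjusted p = 0.00948) and the epoxide hydrolase Ephx2 by -0.42 (SE 0.10, adjusted p = 0.00961). With the presumptive pairs Abcd3, Cat, Ehhadh and Hacl1 were still called, and Pex16 (adjusted p = 0.0518), Pex14 (adjusted p = 0.0757) and Ephx2 (adjusted p = 0.102) were not.

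Dcxr encodes dicarbonyl and L-xylulose reductase, an enzyme of the uronate cycle. On the brighter of its probes the normalized log2 intensity was 10.89 at the lowest, 10.99 at the median and 11.11 at the highest on Trim28MommeD9/+ arrays, and 10.52, 10.80 and 10.84 on Trim28+/+ arrays. The groups stood 0.05 apart, and the difference was 0.26 (SE 0.06), or 0.18 against Trim28+/+ replicate 1, which read 10.81. The other probe read 9.93, 10.03 and 10.09 on Trim28MommeD9/+ arrays and 9.10, 9.65 and 9.72 on Trim28+/+ arrays, again with every Trim28MommeD9/+ array above every Trim28+/+ array, and its difference was 0.44. Both probes put Trim28MommeD9/+ higher after normalization, by different amounts. In the deposited intensities the brighter probe averaged 1750 ± 263 on Trim28MommeD9/+ arrays and 1927 ± 208 on Trim28+/+ arrays (SD), and the other 897 ± 109 and 901 ± 98.4.

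Of 12 tested genes of the uronate and xylulose pathway and of carbonyl reduction, 1 was higher and 3 were lower in Trim28MommeD9/+ livers. Among all genes the shares were 10.4% and 11.4%. Cbr1, a carbonyl reductase that shares substrates with Dcxr, averaged 8.66 ± 0.09 in Trim28MommeD9/+ livers and 9.32 ± 0.19 in Trim28+/+ livers, a log2 fold change of -0.66 (SE 0.08, adjusted p = 9.29e-05). Regucalcin (Rgn) was not detected on any Trim28MommeD9/+ array and on 8 of 9 Trim28+/+ arrays, and was at least 1.30-fold lower in Trim28MommeD9/+ livers (adjusted p = 0.00148), a bound set by the lowest detected intensity of each array. Xylulokinase (Xylb), which acts after Dcxr in the pathway, was lower by a log2 fold change of -0.48 (SE 0.14, adjusted p = 0.0190). The crystallin Cryl1, a gulonate dehydrogenase, was higher by 0.41 (SE 0.14, adjusted p = 0.0471), and Akr1a1, which makes gulonate, was at 0.13 (adjusted p = 0.0856). With the presumptive pairs Cbr1 and Rgn were still called, and Xylb (adjusted p = 0.123) and Cryl1 (adjusted p = 0.0755) were not. Rgn and Cbr1 are in the study's list.

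Lage3 encodes a subunit of the KEOPS complex, which modifies tRNAs that read codons starting with A. Its normalized log2 intensity on Trim28MommeD9/+ arrays was 8.99 at the lowest, 9.06 at the median and 9.13 at the highest, and on Trim28+/+ arrays 8.64, 8.75 and 8.83. The groups stood 0.16 apart, and both were narrow, with an SD of 0.05 in Trim28MommeD9/+ livers and 0.07 in Trim28+/+ livers, below the medians over all genes of 0.144 and 0.186. The difference was 0.30 (SE 0.05), and 0.34 against Trim28+/+ replicate 1, which read 8.71. In the deposited intensities the probe averaged 464 ± 61.1 on Trim28MommeD9/+ arrays and 518 ± 33.6 on Trim28+/+ arrays (SD), the opposite order. Of 5 other genes tested for this tRNA modification none was called in either direction by limma, and the catalytic subunit Osgep was at 0.07 (adjusted p = 0.282). At an unadjusted p under 0.05 the count was 0 of 5.

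**Figure D2:**
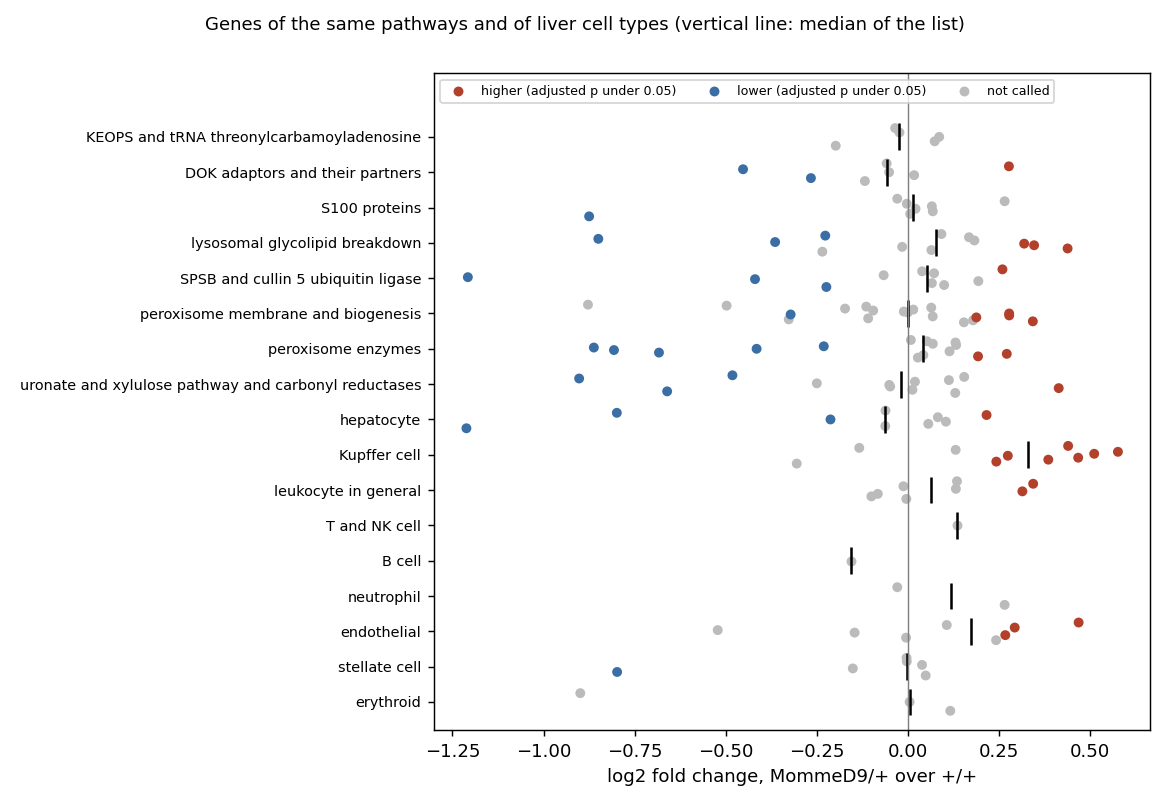
Log2 fold change (Trim28MommeD9/+ over Trim28+/+) of each tested gene in the pathway and cell type lists, with red for higher and blue for lower at an adjusted p under 0.05, grey for the rest and a vertical line at the median of the list. The Kupffer cell list has 7 red points of 10 and a median of 0.33, while the pathway medians lie between -0.06 and 0.08. Rgn and Col3a1, at -0.90 and -0.80, were not detected on Trim28MommeD9/+ arrays, so their points are fitted values and not folds.

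Of the remaining cell type lists, hepatocyte genes had 1 of 9 higher and 3 lower, with a median of -0.06. For these lists too, the shares over all genes were 10.4% higher and 11.4% lower. Alb was lower by a log2 fold change of -1.21 (adjusted p = 0.00163), Serpina1a by -0.80 (adjusted p = 0.00738) and Cyp2e1 by -0.21 (adjusted p = 0.0122). Hpd was higher by 0.22 (adjusted p = 0.0393). With the presumptive pairs only Alb of these was still called, and it is in the study's list. Of 8 endothelial genes 3 were higher and none was lower: Vwf, the von Willebrand factor, by 0.47 (SE 0.07, adjusted p = 0.000739), Egfl7 by 0.27 (adjusted p = 0.0142) and Pecam1 by 0.29 (adjusted p = 0.0168). The other 5 ranged from -0.52 for Lyve1, a receptor of sinusoidal endothelium detected on 3 of 7 Trim28MommeD9/+ arrays and 9 of 9 Trim28+/+ arrays (adjusted p = 0.0507), to 0.24 for Cdh5. With the presumptive pairs only Vwf of the endothelial genes was called. Vwf is in the study's list. Of 6 stellate cell genes none was higher and 1, the collagen Col3a1, was at least 1.16-fold lower in Trim28MommeD9/+ livers (adjusted p = 0.00107). The 3 erythroid genes were not called. Over all lists 25 genes were higher and 22 lower, and under median scaling 1 was higher and 51 lower. Set against Trim28+/+ replicate 1 alone, no gene of the lists was called, and the sign turned for 11 of the 47 called genes, Alb, Cat, Gusb, Naglu, Npc2, Pex14, Rbx1, S100a10, Scarb2, Serpina1a and Xylb. Under median scaling the sign turned for 4 of the 47, Acaa1b, C1qa, Mpv17l2 and Spsb4. Among the named list genes and neighbours that were not called, it turned for Osgep, S100a13, S100a14, Spsb1, Spsb3, Akr1a1 and Tpi1.

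The arrays' brightness bears on every one of the 8 differences. In the deposited intensities the mean was higher in Trim28MommeD9/+ livers for 1700037H04Rik and Gm2a, and for Pxmp2 only at 1204.47 against 1203.6. For the other 5 genes it was lower. Of all 7302 genes, 61 (0.835%) had a higher mean in Trim28MommeD9/+ livers. None of the 8 genes had every Trim28MommeD9/+ array above every Trim28+/+ array in these intensities, a pattern shown by 2 genes (0.0274%). When the corrected values were scaled to the median of each array in place of quantile normalization, all genes tested shifted to a median log2 fold change of -0.187, and the 8 differences were 0.65 for 1700037H04Rik, 0.33 for Dok2, 0.23 for Gm2a, 0.19 for Pxmp2, 0.15 for S100a1, 0.12 for Spsb2, 0.04 for Dcxr and 0.03 for Lage3. All remained above that shift and above 0, but with median scaling only 1700037H04Rik kept every Trim28MommeD9/+ array above every Trim28+/+ array, a pattern then shown by 3 of all genes (0.0411%). The genes were chosen on this contrast, so nothing is read from how they compare with all genes here.

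**Figure D3:**
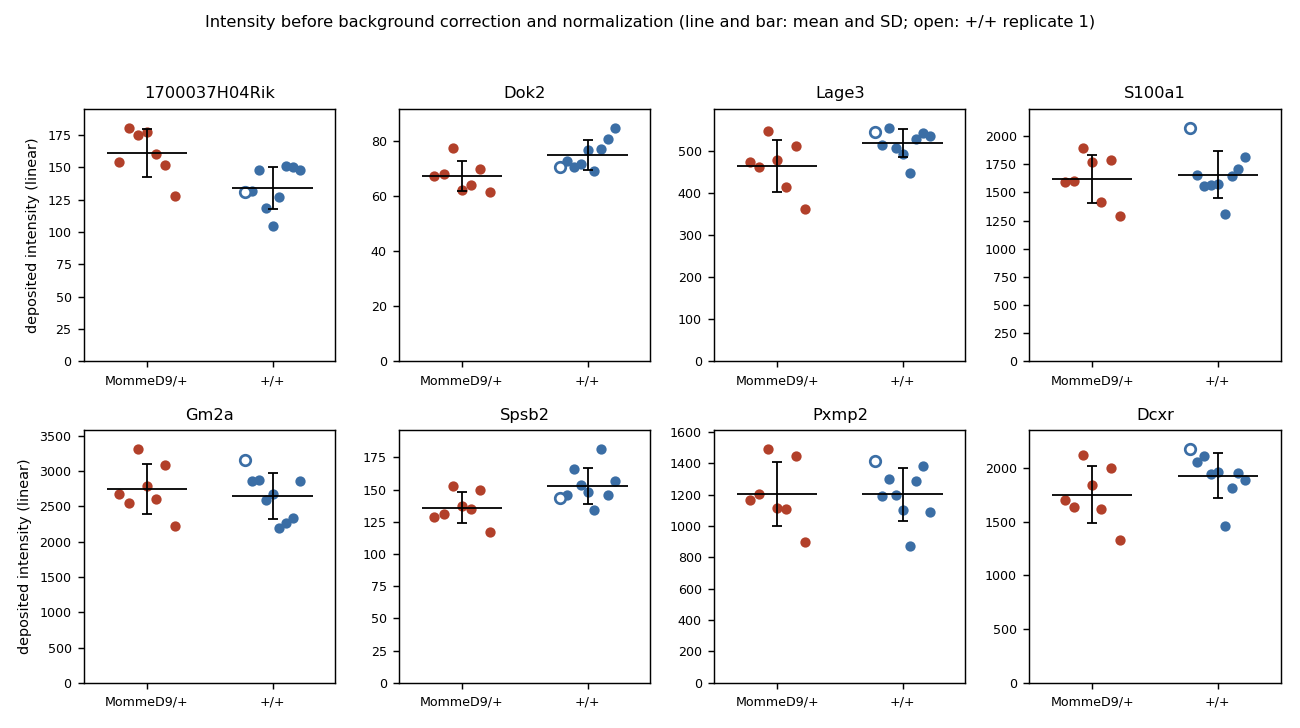
Deposited intensity of each gene before background correction and normalization, on a linear axis from 0, with Trim28MommeD9/+ arrays (red, n = 7) left of Trim28+/+ arrays (blue, n = 9), the mean and SD, and an open symbol for Trim28+/+ replicate 1. The groups overlap in every panel, and 1700037H04Rik is the only gene with 6 of 7 Trim28MommeD9/+ arrays above every Trim28+/+ array.

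In the authors' scaled values, the ratio of the mean in Trim28MommeD9/+ livers to that in Trim28+/+ livers was 1.95 for 1700037H04Rik, 1.58 for Dok2, 1.39 for Gm2a, 1.35 for Pxmp2, 1.31 for S100a1, 1.27 for Spsb2 and 1.21 for both Lage3 and Dcxr. Among those scaled values, 6 of the 8 genes had non-overlapping groups, and for S100a1 and Dcxr 6 of the 7 Trim28MommeD9/+ arrays lay above every Trim28+/+ array. Within the low-background set, all 7 Trim28MommeD9/+ arrays lay above Trim28+/+ replicate 1 for 8 of the 8 genes, against 1291 of all genes (17.7%), with differences from 0.14 for S100a1 to 0.92 for 1700037H04Rik. The choice of the genes fixes that count, so nothing is read from it, and the differences rest on a single Trim28+/+ array.

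**Figure D4:**
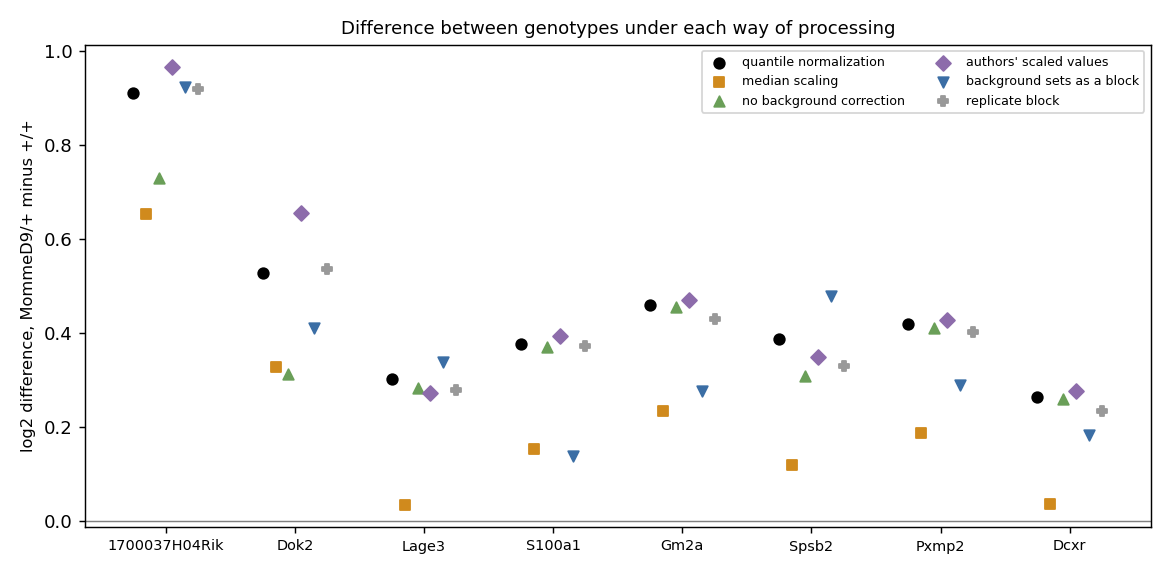
Log2 difference between genotypes (Trim28MommeD9/+ minus Trim28+/+) of each gene under 6 ways of processing the same arrays, 1 symbol each. Every symbol lies above 0, and median scaling gives the lowest value for 6 of the 8 genes, down to 0.03 for Lage3.

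The 8 genes were set beside their nearest tested genes, 2 on each side in gene order, which gave 32 neighbours. Of these, 3 were higher in Trim28MommeD9/+ livers and none was lower at an adjusted p under 0.05. The shares over all 7302 genes were 10.4% higher and 11.4% lower. Ap5s1, a subunit of an adaptor complex, and Ddrgk1, a ufmylation factor, lie near 1700037H04Rik and were higher by 0.39 (SE 0.09, adjusted p = 0.00605) and 0.12 (SE 0.04, adjusted p = 0.0363), and neither was called with the presumptive pairs (adjusted p = 0.0596 and 0.165). Under median scaling Ddrgk1 turned to -0.0933. Ap5s1 was the fifth annotated gene from 1700037H04Rik and Ddrgk1 the 18th, with genes between them that did not pass the filter or were not called. Ptpn6, given above as a partner of Dok2, is the eighth annotated gene from Spsb2. Ubl4a, directly beside Lage3, was at 0.00 (SE 0.06), Pgam5, directly beside Pxmp2, at 0.00 (SE 0.09), and Tpi1, directly beside Spsb2, at 0.02 (SE 0.05).

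**Figure D5:**
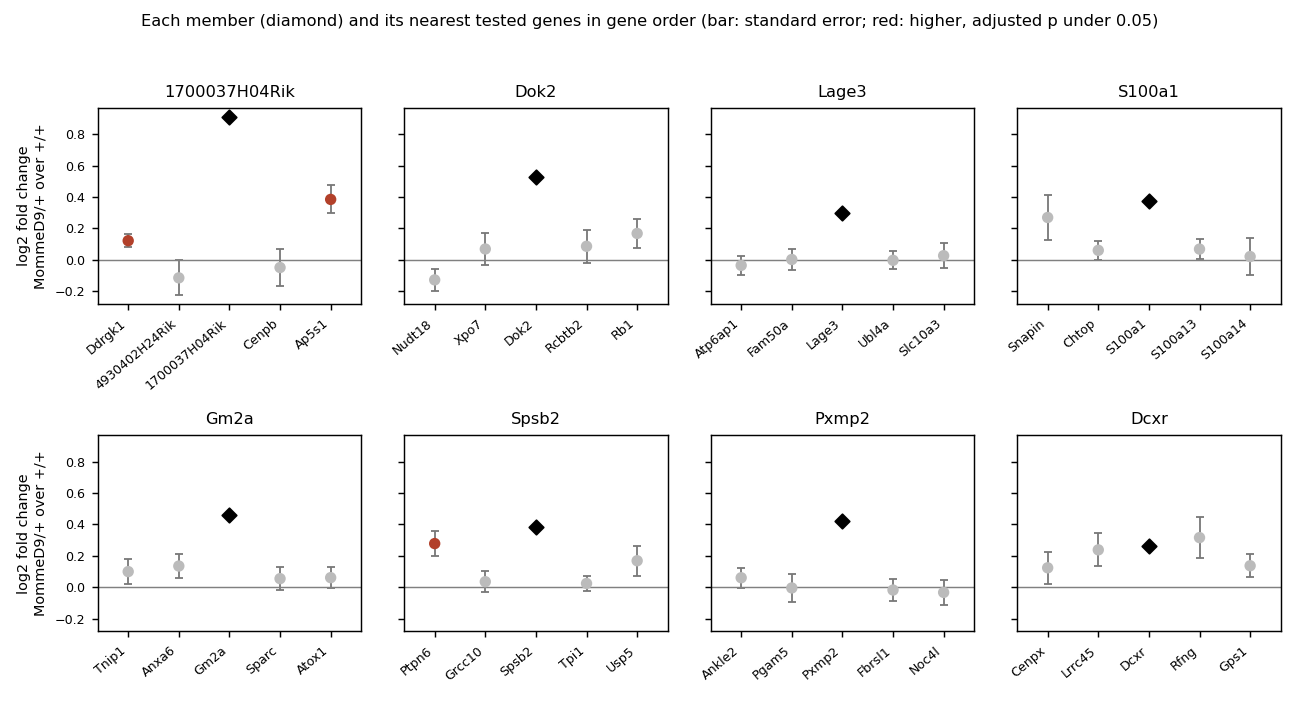
Log2 fold change (Trim28MommeD9/+ over Trim28+/+) of each of the 8 genes (diamond) and of the 2 nearest tested genes on each side, in gene order, with the standard error as a bar. Red points, which are Ddrgk1, Ap5s1 and Ptpn6, were higher at an adjusted p under 0.05. Each diamond lies above its neighbours except in the panel of Dcxr, where Rfng is at 0.32. The 8 genes were chosen on this difference, so nothing is read from the height of the diamonds.

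The arrays did not rank alike across the 8 genes. Trim28MommeD9/+ replicate 6 was the highest of its group for 4 genes and the lowest for 1. Trim28+/+ replicates 7, 8 and 9 had the lowest averages of standardized values over the 8 genes, -1.09, -1.06 and -1.08. Those arrays also had the highest mean intensities, 341, 344 and 340, and the highest constants subtracted by the authors, 55.9, 56.2 and 53.3. Within Trim28MommeD9/+ the order was the other way. Replicates 3 and 6, with that group's highest constants, 40.3 and 39.7, had its highest averages, 1.13 and 1.31. The part of background in these averages was not tested. With the mean of each genotype removed, the 28 pairs of genes had correlations over the 16 arrays from -0.59 to 0.70 with a median of 0.06, and 15 were above 0. The highest were Gm2a with Dcxr (0.70) and Lage3 with Dcxr (0.66), and the lowest was 1700037H04Rik with Dok2 (-0.59). These arrays share mice, brightness and normalization, and the correlations are a description.

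By Pearson's r over the 16 arrays, the genes most like the mean pattern of the 8 were Mas1 (0.95), Fmr1nb (0.95), the proteasome assembly factor Psmg1 (0.93), Vwf (0.92) and the carnitine synthesis enzyme Bbox1 (0.92), an order that the difference between genotypes sets. With the mean of each genotype removed, the most alike were other genes: Ankfy1 (0.91), Mrpl49 (0.90), Oxct1 (0.89), Prdx2 (0.89) and Ttc36 (0.86). Mas1 and Fmr1nb then had correlations of -0.02 and -0.23.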

How the data were processed

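Liver RNA of 4-week-old mice was hybridized by the authors to Illumina MouseRef-8 v2.0 BeadChips. The authors deposited an uncorrected intensity per probe and array, with a detection p-value, and a second table of linear intensity, background-subtracted by a constant per array and scaled. BeadStudio and GenomeStudio were used (versions not given in the sources used here). With limma 3.58.1 (R 4.3.3), neqc (offset 16) corrected the background of 25697 probes (833 blank lines removed), quantile normalized them and took log2. Probes detected (detection p-value below 0.01) on 3 or more of 16 arrays were kept, 10291 in all. Symbols came from the platform annotation, updated through the Entrez identifier (23978 probes with 1 symbol, 0 with several, 1719 with none), and each gene was represented by its brightest probe. Genotype was fitted over 7302 genes by limma's moderated linear model, with a trend of variance on intensity, and Benjamini-Hochberg adjustment ran over all of them (threshold 0.05). The model was tested on simulated data. The number of arrays limits the precision. Descriptions used Python 3.11.15 with pandas 2.3.3, NumPy 2.4.6 and Matplotlib 3.10.9.

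The 8 genes and all lists were chosen with earlier results of these data known. Besides the 8 genes, up to 3 called genes per list with the smallest p, the nearest relatives of each gene, the called neighbours and the genes most alike in pattern are named. Other list genes (such as Ctsa, Naglu, Scarb2, Spsb4, Cryl1, Adgre1, Timd4 and Lyve1) were named after their values were seen. Alternatives were median scaling (over all probes), no background correction, offset 50, the authors' values, the other Dcxr probe, both other filters, the background sets, replicate numbers or presumptive technical pairs as a block, and each array left out.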

Additional observations from a re-analysis of the deposited data

Results flagged for a closer look

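In the 20 groups of arrays checked (9 probes of the 8 genes and the Trim28 probe, in both genotypes), 3 held an array whose gap to its nearest neighbour was unusually large for the range of its group by Dixon's criterion at the 95% level. Chance alone flags about 1 in 20 groups.

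For Dok2, Trim28MommeD9/+ replicate 4 was the lowest of its group at 5.52 log2 units, with the next array at 5.71, a gap of 0.724 of the range. For S100a1, Trim28+/+ replicate 1 was the highest of its group at 10.74, with the next array at 10.54, a gap of 0.586 of the range. This is the array of the low-background set. For the dimmer probe of Dcxr, Trim28+/+ replicate 9 was the lowest of its group at 9.10, with the next array at 9.53, a gap of 0.699 of the range, while on the brighter probe the same array read 10.59 and was not the lowest.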

How the results depend on the processing

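All 8 genes kept a higher mean in Trim28MommeD9/+ livers under median scaling, no background correction, offset 50, the authors' values, the background sets or the replicate numbers as a block, and with each array left out. Their median difference of 0.40 moved to 0.17 under median scaling, where 1 of 8 genes kept non-overlapping groups. Leaving out each array gave medians of 0.38 to 0.42, with 8 of 8 genes non-overlapping. That count and the order of the means were fixed beforehand, because groups that stand apart over all arrays stay apart without 1 array.

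The calls over other genes depended more on the processing. Of all genes tested, 761 were called higher, against 35 under median scaling, 461 with no filter on detection, 2 with the background sets as a block, 162 with the replicate block, 176 with presumptive technical pairs and 502 to 981 with each array left out (502 without Trim28MommeD9/+ replicate 6). The 831 called lower became 2526, 1 (background sets), 379 (replicate block), 311 (pairs) and 664 to 974. The replicate numbers pair no samples by the labels: same-numbered arrays had correlations of -0.394 to 0.479, and 2 of 7 correlated best with their own number. Over the pathway and cell type lists, 25 genes were higher and 22 lower. These counts were 1 and 51 under median scaling, 0 and 0 with the background sets, 9 and 7 with the replicate block, 8 and 11 with the pairs, and 20 to 26 and 18 to 27 with each array left out. The 3 neighbours called higher were 0 under median scaling, the background sets, the replicate block and the pairs. The 0 called lower were 9 under median scaling and at most 1 with each array left out, without Trim28+/+ replicate 1. Trim28 was at -0.77 with the background sets, no longer called.

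Signs turned under median scaling for Ddrgk1 (-0.0933), Osgep (-0.18), S100a13 (-0.20), Spsb1 (-0.15), Spsb3 (-0.22), Akr1a1 (-0.0661), Spsb4 (-0.00311), Mpv17l2 (-0.0675), Acaa1b (-0.0251) and C1qa (-0.0205). The same held for S100a14 (-0.0760) and Tpi1 (-0.20). With the background sets as a block signs turned for S100a10 (0.13), Npc2 (0.0561), Gusb (-0.0400), Rbx1 (0.0833), Pex14 (0.10), Cat (0.0103), Xylb (0.29), Alb (0.36), Serpina1a (0.22), Naglu (0.18), Scarb2 (0.12), Adgre1 (0.16), Timd4 (0.22), Spsb3 (-0.11) and Akr1a1 (-0.0911). They also turned there for Apoa1 (0.0261), Ttr (0.17), S100a14 (-0.13), Rfng (-0.117) and Ubl4a (0.0013). With each array left out Spsb3 ranged from -0.0154 to 0.108, below 0 without Trim28MommeD9/+ replicate 4 or 7 or Trim28+/+ replicate 7. The cause was not tested. That block compares the Trim28MommeD9/+ arrays with 1 array.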
